A study of Mus musculus with 14 samples.

Results

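The 10 genes described here belong to the synthesis and breakdown of coenzyme A (CoA), Pank4 by its family only. They were taken by gene name from the table of counts, which lists 54532 genes, and are Pank1, Pank2, Pank3, Pank4, Ppcs, Ppcdc, Coasy, Vnn1, Vnn3 and Nudt7. The rule uses gene names and no measured value, but the list was drawn up with earlier results of these data known. All 10 had enough reads to be tested.

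RNA-seq was performed on scraped ileum mucosa from 7 WT and 7 IKO mice, with 1 library for each mouse. WT mice were NCoR1 flox/flox, and IKO mice carried the same floxed alleles plus Cre recombinase under the villin promoter, which acts in intestinal epithelial cells (IECs), so every mouse of both genotypes had floxed NCoR1. All mice were male and had been kept on a high fat diet (HFD) for 15 weeks. The methods give their age at the start of feeding as 7 to 8 weeks. The scheme of the feeding experiment names mice 9 weeks old, which had a period of chow before the switch to HFD. The comparison asks how the RNA of these genes differs in the HFD-fed ileum when the corepressor NCoR1 is deleted from IECs.

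CoA carries acyl groups for fatty acid (FA) oxidation, lipid synthesis and the citric acid cycle. Cells make it from pantothenate (vitamin B5) in a short chain of steps, of which the first, phosphorylation by pantothenate kinase, sets the pace and is inhibited by CoA and its thioesters. CoA is broken down by Nudix hydrolases to phosphopantetheine, and pantetheinases of the vanin family split pantetheine into pantothenate and cysteamine, which returns the vitamin to the pool. Pank1 and Vnn1 are known targets of PPARα, a nuclear receptor for FAs, and NCoR1 is a corepressor of nuclear receptors.

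Depth was between 14749669 and 21557468 counts for each library. Transcripts of the mitochondrial genome made up 50.29% of IKO 4 and 23.91% of WT 3, against 3.49% to 10.34% in the other libraries. Ncor1 itself was lower in IKO mice with no overlap between genotypes (log2 fold change -1.41, SE 0.18, edgeR adjusted p = 0.00051). The labels call the samples IECs, and the 5 enterocyte markers summed to between 5727 and 19400 CPM in WT and between 8521 and 22050 CPM in IKO mice. CPM are counts scaled to a common library size with TMM factors. These ran from 0.9311 (WT 2) to 1.5319 (WT 7) in WT and from 0.5787 (IKO 4) to 0.9674 (IKO 6) in IKO mice. Scaling with them tended to raise IKO values against WT values. The differences and overlaps below depend on this scaling, and every alternative run used TMM, RLE or DESeq2 factors. Other cell types were present: the 5 smooth muscle markers summed to 9090 CPM in WT 4, to 4.344 CPM in the lowest WT mouse and to between 4.304 and 667 CPM in IKO mice. The 4 stem cell markers summed to between 57.66 and 178.7 CPM in WT and between 33.18 and 107.5 CPM in IKO mice. Of 50 marker genes tested in 13 lists, 0 passed the edgeR test at an adjusted p under 0.05 and 14 had an unadjusted p under 0.05, while 7 passed by DESeq2 (1 higher and 6 lower in IKO mice, the stem cell marker Olfm4 among the latter) and 3 by limma-voom with quality weights. Every tested stem, tuft, T cell, B and plasma cell, and macrophage and dendritic marker had a log2 fold change below 0. So did every smooth muscle and every fibroblast and endothelial marker. The medians of these lists lay between -3.13 (smooth muscle) and -0.34 (T cell). All 5 goblet markers were above 0, and the enterocyte, ileal enterocyte, Paneth and enteroendocrine lists went both ways. The part of the cell mixture in the differences below was not tested, and in whole mucosa fewer cells of a type and less RNA for each cell cannot be told apart.

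In IKO mice, 3 of the 10 genes had more RNA and 1 had less. Vnn1, Ppcs and Coasy rose 2.161-fold, 1.791-fold and 1.573-fold, and Pank4 fell to 0.6469 of its WT level. The other 6 genes did not pass the test, Pank1 among them. A gene was called at an adjusted p under 0.05 from the quasi-likelihood test of edgeR, adjusted by the Benjamini-Hochberg method over the 13846 genes that passed the filter on low counts. By that rule 8.67% of all genes tested were called, 4.38% as higher and 4.28% as lower in IKO mice. The median log2 fold change was 0.35 over the 10 genes, 8 of which were above 0, and -0.09 over all genes tested, of which 43.478% were above 0. CPM of the genotypes did not overlap for 2 of the 10 genes, Coasy and Pank4, beside 3.1% of all genes tested. Without the libraries IKO 4, WT 3 and WT 4 together, the fold changes of these 4 genes kept their direction, but of them only Vnn1 still passed.

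**Figure D1:**
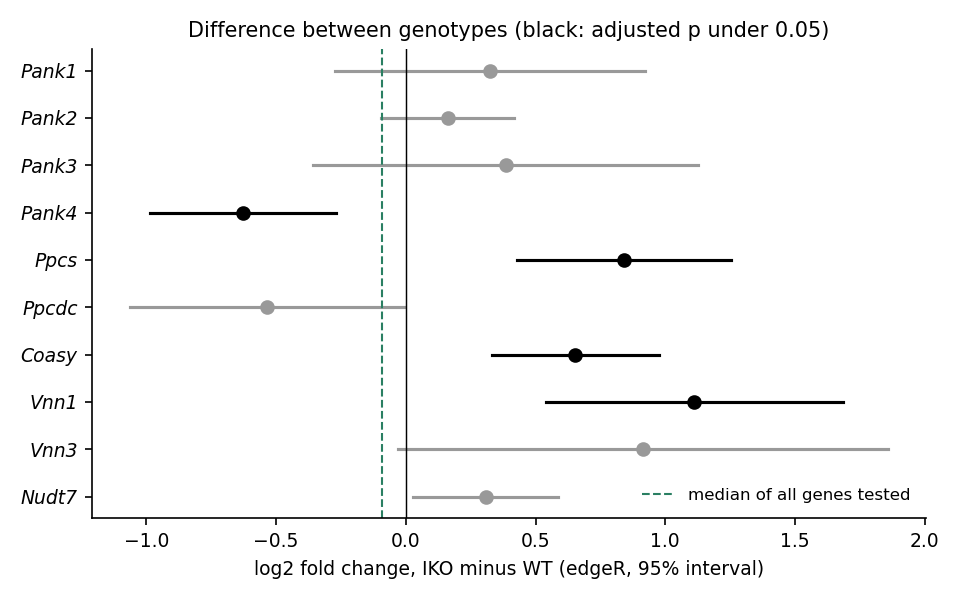
The plot shows the log2 fold change of each gene, IKO minus WT (edgeR, horizontal axis), as a point with its 95% confidence interval, in black for an adjusted p under 0.05. Ppcs, Coasy and Vnn1 lie to the right of 0 with intervals that do not reach it, Pank4 lies to the left, and the dashed line marks the median of all genes tested at -0.09.

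The promoter windows of RefSeq (GRCm38.p6) are 300 bases long, with 250 bases before each start, and hold entries for 8 of the 10 genes, all but Vnn1 and Coasy. The 250 bases before the start of Ppcs, which rose, and of Pank4, which fell, are shown because both genes passed the test in opposite directions; the bases run 5′ to 3′ up to the base before the start, and capitals mark AGGTCA, the core half-site of many nuclear receptors. The Ppcs stretch lies on the minus strand at chr4:119422421-119422670 and the Pank4 stretch on the plus strand at chr4:154963873-154964122.
Ppcs: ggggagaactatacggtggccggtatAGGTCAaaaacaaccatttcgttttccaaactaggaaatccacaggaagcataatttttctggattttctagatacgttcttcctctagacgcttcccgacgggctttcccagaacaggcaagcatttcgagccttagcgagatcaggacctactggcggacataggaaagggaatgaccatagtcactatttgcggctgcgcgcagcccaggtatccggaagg
Pank4: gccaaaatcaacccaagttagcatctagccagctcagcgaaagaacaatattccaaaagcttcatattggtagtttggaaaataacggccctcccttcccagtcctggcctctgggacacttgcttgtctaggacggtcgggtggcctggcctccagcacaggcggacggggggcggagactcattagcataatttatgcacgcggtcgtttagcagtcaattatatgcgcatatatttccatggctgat
AGGTCA was searched on both strands. It begins 224 bases before the start of Ppcs and 27 bases after that of Ppcdc, in no window of the other 6 genes, and in 16.3% of all 32851 windows. The direct repeat of AGGNCA with 1 base between the copies, a form that PPARα binds with its partner RXR, was in no window of the 8 genes and in 0.381% of all windows. A match is a description of letters only.

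The 7 genes listed for the synthetic chain begin with the pantothenate kinase family, in which Pank4 lacks that activity. Pank1, a kinase best known from liver, where fasting induces it, lies on the minus strand of chromosome 19 (GRCm38, chr19:34810894-34879455). In WT mice its level ran from 2.963 (WT 2) through a median of 7.959 to 14.67 CPM (WT 1), and in IKO mice from 6.957 through 10.21 to 11.64 CPM. The IKO values lay inside the wide WT range, although 6 of 7 were above the WT median. The fold was 1.251 (95% confidence interval 0.8265 to 1.893, log2 fold change 0.32, SE 0.28), with an edgeR adjusted p of 0.455 and an exact two-sided permutation p of 0.163. The coefficient of variation was 47.9% in WT and 15.8% in IKO mice.

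Pank2, whose human counterpart is the mitochondrial kinase lost in a form of neurodegeneration with iron in the brain, lies on the plus strand at chr2:131262495-131299188. Its level was the steadiest of the kinases. It ran from 22.65 through 29.56 to 32.42 CPM in WT mice and from 27.34 through 30.59 to 38.37 CPM in IKO mice, and the ranges overlapped. The fold was 1.118 (95% confidence interval 0.935 to 1.336), with an edgeR adjusted p of 0.382 and an exact permutation p of 0.0985. Overlaps with Rnf24, on the opposite strand, and with Gm14233, on the same strand, add up to 30.21% of its exon bases, each gene counted apart. The strand setting of the counting is not given in the sources used here, so its reads cannot be fully told apart from those of Rnf24. No strand setting would tell them apart from those of Gm14233. For Rnf24 the log2 difference was 0.48 (SE 0.47, edgeR adjusted p = 0.51).

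Pank3, the most abundant of the kinases here, lies on the plus strand at chr11:35769484-35791285 and differed more among mice than between genotypes. In WT mice it ran from 130.4 through 182.0 to 325.3 CPM, a 2.495-fold range. In IKO mice it ran from 120.8 through 219.5 to 560.6 CPM, a 4.642-fold range. The IKO values held both the lowest and the highest of all mice: IKO 3 (419.5 CPM), IKO 6 (346.7 CPM) and IKO 7 (560.6 CPM) stood above every WT mouse, and the other 4 lay within or below the WT range. The fold was 1.306 (95% confidence interval 0.7808 to 2.183), with an edgeR adjusted p of 0.474 and an exact permutation p of 0.53.

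Pank4, a family member that lacks pantothenate kinase activity in mammals and carries a phosphatase domain, lies on the plus strand at chr4:154964123-154980938. WT mice had 12.87, 21.13, 13.18, 15.44, 11.88, 12.38 and 17.59 CPM (WT 1 to WT 7). IKO mice had 7.132, 9.253, 10.53, 9.619, 9.287, 11.13 and 10.6 CPM (IKO 1 to IKO 7). Every IKO mouse was below every WT mouse. The mean fell from 14.9 ± 3.39 (SD, n = 7) to 9.65 ± 1.32 CPM (SD, n = 7), which is 35.3% lower by the fitted fold (log2 fold change -0.63, SE 0.17, edgeR adjusted p = 0.0348). The exact two-sided permutation p was 0.000583, the smallest that the divisions of these mice into 7 and 7 can give. The edgeR call ended when WT 4, WT 7, IKO 1, IKO 2, IKO 4 or IKO 5 was left out (adjusted p between 0.0526 and 0.0755), with log2 fold changes between -0.62 and -0.56.

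Per gene length, the summed RNA of the 4 Pank genes was mostly Pank3. FPKM divide the counts by gene length and so allow levels of different genes to be set side by side. For Pank1 the length used was 3692 bases, while its exons in GENCODE cover 8267 bases. Its FPKM, and so its share, depend on that choice. For the other genes both lengths are equal. Pank3 made up 69.08 ± 6.98% (SD, n = 7) of the summed FPKM of Pank1 to Pank4 in WT and 72.06 ± 11.1% in IKO mice, and Pank2 14.3 ± 2.67% and 15.2 ± 6.45%. Pank1 accounted for 5.27 ± 2.20% in WT and 6.399 ± 2.87% in IKO mice, a difference of 1.13 percentage points that did not exceed the spread (exact two-sided permutation p = 0.426, adjusted p = 0.631 over 3 measures). Pank4 accounted for 11.3 ± 4.69% in WT and 6.33 ± 2.16% in IKO mice, values that follow from its fall and were not tested again.

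**Figure D2:**
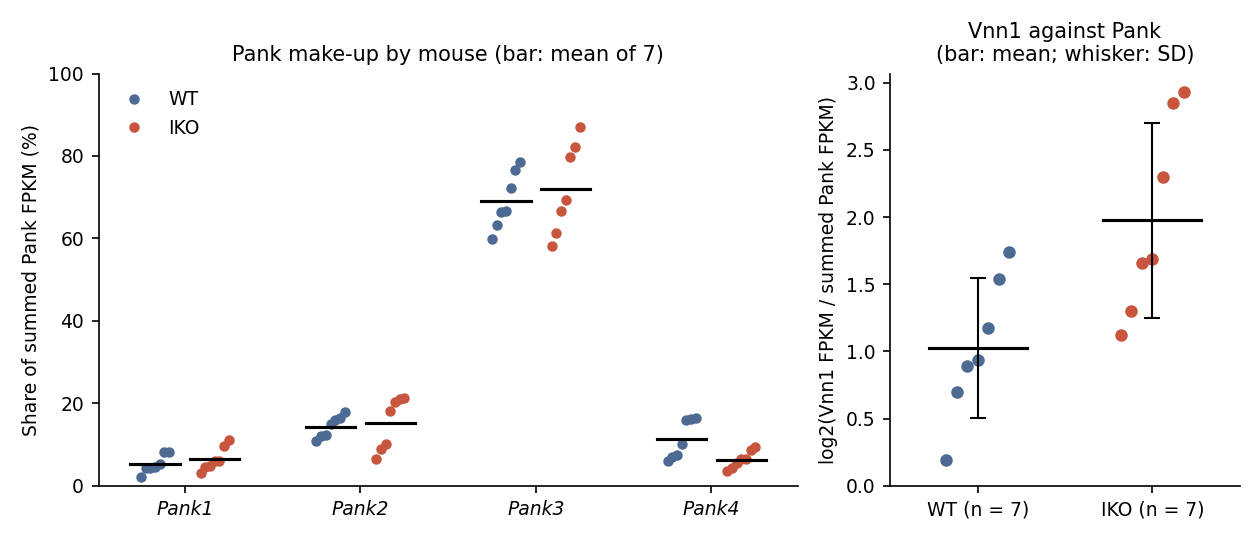
On the left, each point is the share (%) of 1 Pank gene in the summed Pank FPKM of 1 mouse, with the mean of 7 mice as a bar; Pank3 holds between 58.14% and 87.12% in every mouse. On the right, each point is log2 of Vnn1 FPKM over summed Pank FPKM in 1 mouse, with mean and SD; WT mice lie between 0.19 and 1.74 and IKO mice between 1.12 and 2.93.

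Of the 3 genes of the later steps, Ppcs and Coasy rose and Ppcdc did not pass the test. Ppcs, the synthetase that joins phosphopantothenate to cysteine, lies on the minus strand at chr4:119418530-119422420. WT 1 to WT 7 had 29.46, 48.38, 52.06, 33.1, 45.37, 38.19 and 29.26 CPM. IKO 1 to IKO 7 had 64.13, 107.9, 49.38, 86.02, 61.3, 60.43 and 64.81 CPM. Of the IKO mice, 6 of 7 stood above the highest WT mouse and IKO 3 lay among the WT values. The mean rose from 39.4 ± 9.30 to 70.6 ± 19.8 CPM (SD, n = 7 each), with a fitted fold of 1.791 (95% confidence interval 1.345 to 2.386, log2 fold change 0.84, SE 0.19, edgeR adjusted p = 0.0188) and an exact permutation p of 0.00117. Without IKO 4, WT 3 and WT 4 the log2 fold change was 0.84, with an adjusted p of 0.0607.

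Ppcdc, the decarboxylase of the next step, lies on the minus strand at chr9:57385095-57440124. It ran from 9.159 through 15.75 to 25.0 CPM in WT mice and from 8.313 through 9.752 to 15.26 CPM in IKO mice. All 7 IKO mice were below the WT median, but WT 1, WT 5 and WT 6 lay among them. The fold was 0.6904 (95% confidence interval 0.4786 to 0.996, log2 fold change -0.53, SE 0.25), and neither the edgeR adjusted p of 0.161 nor the exact permutation p of 0.0915 passed.

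Coasy, the bifunctional CoA synthase that carries out the final pair of reactions, lies on the plus strand at chr11:101082565-101086619. In WT 1 to WT 7 it had 23.04, 16.56, 25.28, 19.52, 25.96, 29.02 and 23.0 CPM. In IKO 1 to IKO 7 it had 40.1, 48.21, 31.09, 34.54, 38.7, 29.73 and 33.07 CPM. The lowest IKO mouse stood just above the highest WT mouse, so the genotypes did not overlap in CPM. Before any scaling the counts did overlap, from 257 to 650 in WT and from 316 to 818 in IKO mice. The mean rose from 23.2 ± 4.16 to 36.5 ± 6.4 CPM (SD, n = 7 each), a fitted fold of 1.573 (95% confidence interval 1.258 to 1.966, log2 fold change 0.65, SE 0.15, edgeR adjusted p = 0.0188), and the exact permutation p was again the smallest possible, 0.000583. Without IKO 4, WT 3 and WT 4 the log2 fold change was 0.65, with an adjusted p of 0.0769.

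Vnn1, the membrane-anchored pantetheinase of the gut and liver, had the highest level per gene length and rose the most. It lies on the plus strand at chr10:23894688-23905343. WT 1 to WT 7 had 226.9, 297.0, 102.2, 196.1, 251.3, 274.3 and 122.2 CPM. IKO 1 to IKO 7 had 581.6, 335.4, 526.9, 225.3, 532.0, 458.3 and 517.9 CPM. IKO mice other than IKO 4 stood above the highest WT mouse, while IKO 4 lay at about the WT median and WT 3, the WT library richest in mitochondrial counts, was the lowest of all. The mean rose from 210.0 ± 74.4 to 453.9 ± 127.9 CPM (SD, n = 7 each), with a fitted fold of 2.161 (95% confidence interval 1.454 to 3.213, log2 fold change 1.11, SE 0.27, edgeR adjusted p = 0.0228) and an exact permutation p of 0.0035. Without IKO 4, WT 3 and WT 4 the log2 fold change was 1.07 (adjusted p = 0.0323), and the call ended without IKO 1 (1.05, adjusted p = 0.0529) or without IKO 5 (1.07, adjusted p = 0.0530).

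**Figure D3:**
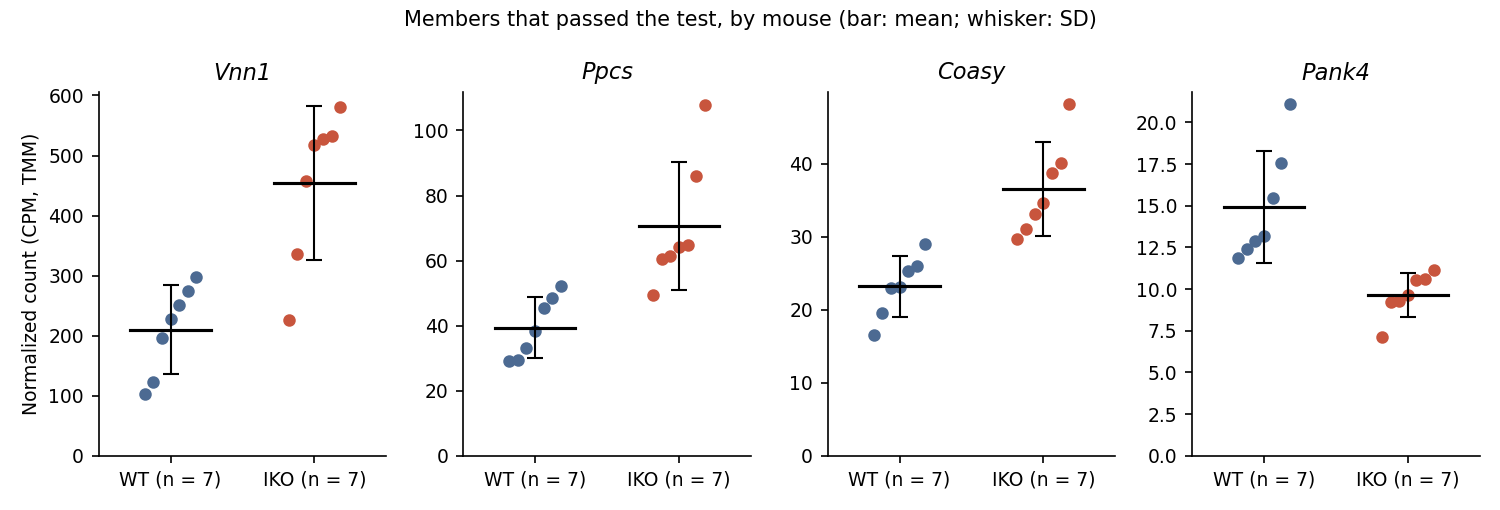
Each point is the CPM of Vnn1, Ppcs, Coasy or Pank4 in 1 mouse, sorted within a genotype, with the mean (bar) and SD (whisker) of 7 WT and 7 IKO mice on axes that start at 0. Coasy and Pank4 separate the genotypes completely, while 1 IKO mouse lies within the WT range for Vnn1 (225.3 CPM) and for Ppcs (49.38 CPM).

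Vnn3, another vanin, is the neighbor of Vnn1 on the same strand, at chr10:23851462-23869843, and had the fewest reads of the 10 genes. It had between 6 and 25 counts for each mouse and 205 counts over all 14. Its level ran from 0.2451 through 0.5154 to 1.359 CPM in WT and from 0.4715 through 0.9637 to 2.623 CPM in IKO mice, with overlap. The fold of 1.884 had a 95% confidence interval of 0.9794 to 3.625 (edgeR adjusted p = 0.177, exact permutation p = 0.0548), and neither test passed, while limma-voom with quality weights gave a log2 fold change of 1.18 with an adjusted p of 0.0348. Transcripts of Vnn1 and Vnn3 share no run longer than 12 bases, which is shorter than the reads. Vnn1 made up 99.5 ± 0.563% of the summed FPKM of both vanins in WT and 99.6 ± 0.489% in IKO mice (difference 0.08 percentage points, exact permutation p = 0.631, adjusted p = 0.631 over 3 measures).

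Nudt7, the peroxisomal Nudix hydrolase of CoA and acyl-CoA, lies on the plus strand at chr8:114133557-114154739. It ran from 13.2 through 15.33 to 18.81 CPM in WT and from 15.9 through 19.45 to 22.16 CPM in IKO mice. All 7 IKO mice were above the WT median, and the ranges overlapped. The fold of 1.237 (95% confidence interval 1.019 to 1.503, log2 fold change 0.31, SE 0.13) had an exact permutation p of 0.00991 for this gene alone but did not pass over all genes (edgeR adjusted p = 0.135).

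**Figure D4:**
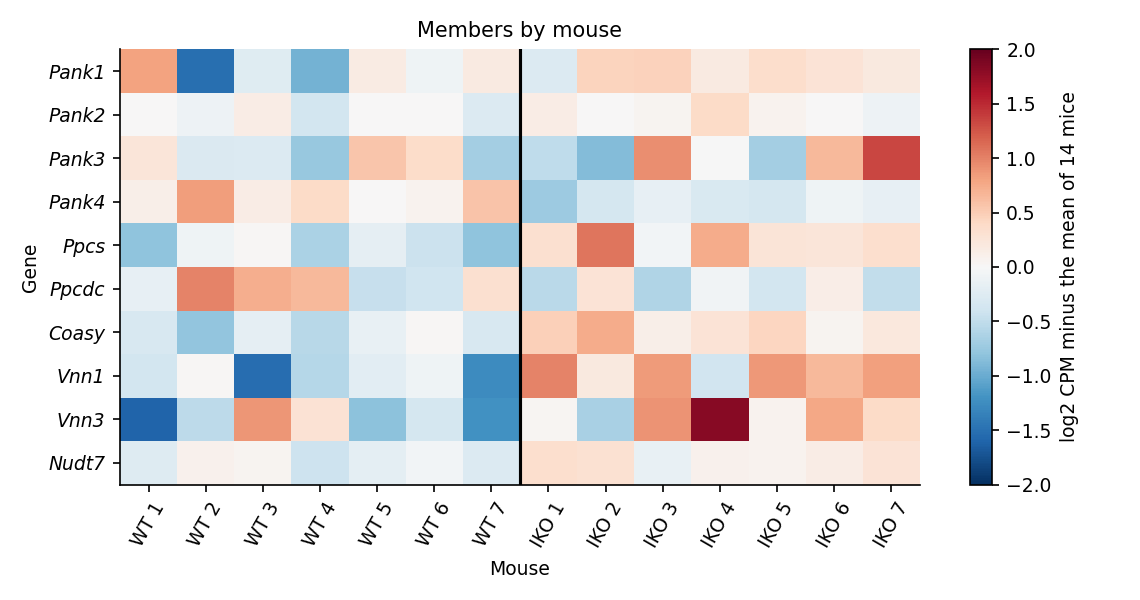
Each row is a gene, each column a mouse, and the color is log2 CPM minus the mean of that gene over 14 mice, from blue (lower) to red (higher). Ppcs, Coasy and Vnn1 are red in most IKO columns, Pank4 is blue in all of them, and Pank3 is both red (IKO 3, IKO 6, IKO 7) and blue (IKO 1, IKO 2, IKO 5) within the IKO mice.

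The order of the levels per gene length in WT mice was Vnn1, Pank3, Ppcs, Coasy, Pank2, Pank4, Nudt7, Ppcdc, Pank1 and Vnn3. Median FPKM in WT mice fell from 92.11 for Vnn1 to 23.8 for Pank3, 23.66 for Ppcs and 7.882 for Coasy. Below these lay Pank2 at 5.906, Pank4 at 3.64, Nudt7 at 2.689, Ppcdc at 2.628, Pank1 at 2.144 and Vnn3 at 0.2775 FPKM. Of the 9 neighboring pairs, 5 differed in the same direction in 7 of 7 WT mice (exact sign-flip permutation p = 0.0156, the smallest that 7 mice allow, adjusted p = 0.0281 over 9 pairs). These were Vnn1 over Pank3, Ppcs over Coasy, Coasy over Pank2, Pank4 over Nudt7 and Pank1 over Vnn3. The place of Pank1 depends on the gene length used for it, as given above. The order of Pank3 and Ppcs (4 of 7 mice), Pank2 and Pank4 (5 of 7), Nudt7 and Ppcdc (3 of 7) and Ppcdc and Pank1 (4 of 7) did not hold beyond the spread, with adjusted p between 0.141 and 0.547 in the exact permutation test. Pairs and directions were taken from the medians of these same 7 WT mice, so the p-values are not those of pairs fixed beforehand.

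In IKO mice the median FPKM of Vnn1 was 217.1, followed by Ppcs at 39.52, Pank3 at 30.16 and Coasy at 12.21. Pank2 came next at 6.21, then Nudt7 at 3.432, Pank4 at 2.796, Pank1 at 2.742, Ppcdc at 1.707 and Vnn3 at 0.539 FPKM. Ppcs thus stood above Pank3, Nudt7 above Pank4, and Pank1 above Ppcdc in the IKO order. These changes of place were not tested.

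**Figure D5:**
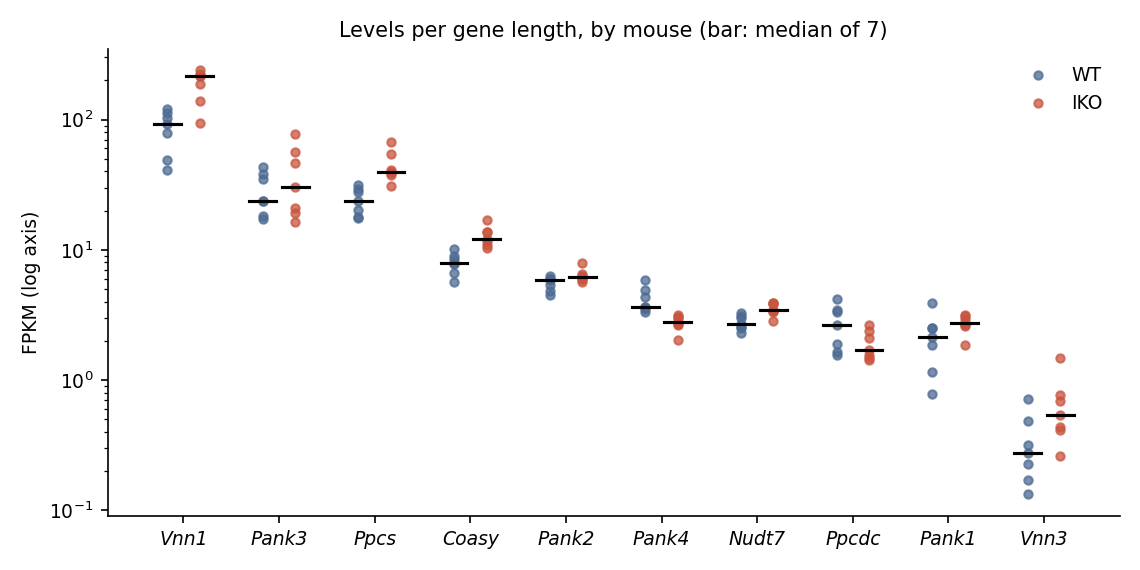
Each point is the FPKM of a gene in 1 mouse on a log axis, WT beside IKO, with the median of 7 mice as a bar and genes in the WT order. Vnn1 lies highest (medians 92.11 and 217.1 FPKM) and Vnn3 lowest (0.2775 and 0.539 FPKM) in both genotypes.

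Set against the summed Pank RNA of the same mouse, a sum that includes Pank4, Vnn1 RNA was higher in IKO mice. This ratio holds the Vnn1 values already tested above, so it is not an independent result. Log2 of Vnn1 FPKM over the summed Pank FPKM was 1.02 ± 0.520 in WT and 1.98 ± 0.726 in IKO mice (SD, n = 7 each), a difference of 0.95 with an exact two-sided permutation p of 0.0163 (adjusted p = 0.049 over 3 measures). The ranges overlapped, from 0.19 to 1.74 in WT and from 1.12 to 2.93 in IKO mice. The adjusted p was just inside the threshold and moved to between 0.0629 and 0.107 when any of WT 1, WT 3, WT 5, WT 6, WT 7, IKO 1, IKO 2, IKO 3, IKO 5 or IKO 6 was left out, with differences between 0.79 and 1.01. Within a genotype, 0 of 8 relations between pairs of these genes (Vnn1 with Vnn3, Pank1 and Nudt7, and Pank1 with Nudt7) passed. Pearson r ran from -0.532 to 0.0674 with exact permutation p of 0.225 or more and adjusted p of 0.86 or more, and Spearman rho had adjusted p of 0.882 or more (n = 7 in each). The r was also taken without the 2 mice farthest from the median of the first gene, with no test. For Vnn1 with Nudt7 it went from 0.0674 to 0.981 in WT and from -0.00619 to 0.236 in IKO mice. Spearman rho of that pair over all 7 WT mice was 0.429 (exact permutation p = 0.354). For Pank1 with Nudt7, r turned from -0.347 to 0.4 in WT and from -0.532 to 0.341 in IKO mice. For Vnn1 with Pank1 it went from -0.22 to -0.228 in WT and from -0.195 to -0.578 in IKO mice. For Vnn1 with Vnn3 it went from -0.386 to -0.223 in WT and from -0.474 to -0.652 in IKO mice. The values of r that moved far rested on those mice.

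For the genes that passed, those with the most similar course over the 14 mice were sought among 8210 other genes, by the root mean square (RMS) difference of mean-centered log2 CPM. Vnn1 was most like Abcg8 (RMS 0.236), Abhd6 (0.262) and Tmem139 (0.273), whose log2 fold changes were 0.80, 0.84 and 0.92. Ppcs was most like Sdhc (0.159), Slc25a1 (0.166) and Copz1 (0.179), and Coasy most like Ndufv1 (0.131), Oaz1 (0.139) and Psmd8 (0.145). Pank4 was most like Tubgcp3 (0.118), Usp48 (0.169) and Ercc4 (0.186). These likenesses include the genotype difference itself and carry no test. Of the genes named as alike, Abcg8, Copz1 and Ercc4 did not pass by edgeR (adjusted p = 0.0726, 0.0548 and 0.078), and the others did.

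Around the CoA chain, 17 of 19 listed genes were tested and 1 passed, as against 8.67% of all genes. That gene was Ppara, the gene for PPARα, which rose from 20.02 ± 10.4 to 58.7 ± 31.3 CPM (SD, n = 7 each), a log2 fold change of 1.55 (SE 0.40, edgeR adjusted p = 0.0285), and 0 of the 17 passed when WT 7, IKO 3 or IKO 4 was left out. Of the other regulators, the same edgeR fit gave a log2 difference of 0.47 for Hnf4a (adjusted p = 0.107) and of -0.12 for Ppargc1a (adjusted p = 0.817). Of 4 transporters of pantothenate and CoA 0 passed, with log2 fold changes between -0.33 and -0.21. Of the 6 tested genes for phosphopantetheine transfer, other CoA hydrolases and vanin relatives 0 passed (between -0.30 and 0.58), and the hydrolase gene Nudt8, with 26 counts in all, was not tested. Of the genes that take cysteamine and cysteine to taurine, 0 of 4 tested passed (between -0.20 and 0.26), and Gadl1 had 0 counts. In these last 3 lists 0 genes had an unadjusted p under 0.05 by edgeR, 0 passed by DESeq2 and 1, the biotinidase gene Btd, passed by limma-voom with quality weights.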

How the data were processed

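Total RNA from ileum mucosa of 7 WT and 7 IKO mice was sequenced by the authors, whose processing notes name mm10, HISAT2 2.0.5, featureCounts 1.5.0-p3 and DESeq2 1.16.1. The deposited counts are raw reads for each of 54532 genes. The FPKM deposited by the authors equal those counts divided by gene length and by a DESeq2 size factor times a constant. The sample columns named KO in the files were read as the IKO mice of the labels. Strandedness is not given in the sources used here.

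All genes were fitted with edgeR 4.0.16 (filterByExpr, TMM factors, quasi-likelihood test, genotype as the only term) in R 4.3.3, with Benjamini-Hochberg adjustment over 13846 genes. Log2 CPM used a prior count of 2. Standard errors are the size of the fold change over the square root of F. Exact two-sided permutation tests went through all divisions, sign flips or pairings with numpy 2.4.6, and ranks for Spearman rho came from scipy 1.17.1. The fitting procedure was tested on simulated counts. Depth was 14749669 to 21557468 counts for each library, with 1 library for each mouse. Alternatives were DESeq2 1.42.0, RLE factors, omission of the filter, a minimum of 10 counts in each sample, limma 3.58.1 on log2(FPKM + 1) and log2(FPKM + 0.1) for genes above 0.5 FPKM in at least 7 samples or without that filter, limma-voom with quality weights, removal of mitochondrially encoded genes, removal of IKO 4, WT 3 and WT 4, the sample number as a replicate block, and each mouse left out in turn.

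All 10 genes are named with values, of the 19 genes around the pathway those that passed, with Hnf4a, Ppargc1a, Nudt8, Gadl1 and Btd named outside that rule after their values were seen (likewise Olfm4 and Rnf24), and for each gene that passed the 3 genes most like it among those of mean log2 CPM 3 or more. Members, lists and motifs were chosen with earlier results of these data known. Positions are from the files and have the same start and end in GENCODE for GRCm38 for all but Pank1.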

Additional observations from a re-analysis of the deposited data

Results flagged for a closer look

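Dixon's test was run on 26 sets of 7 values, the 10 genes and 3 derived measures in each genotype. By it, 3 single values stood far from the other 6 of their set. Independent sets would give about 1.3 by chance (about 1 in 20). These sets are not independent, since Vnn3 enters the Vnn1 share, so the Vnn3 and share values of IKO 4 are not separate. Vnn3 in IKO 4 was 2.623 CPM, and the nearest IKO mouse had 1.385 CPM; it rests on 24 counts. Vnn1 made up 98.26% of the summed vanin FPKM in WT 3, where the nearest WT mouse had 99.39%, and 98.47% in IKO 4, where the nearest IKO mouse had 99.63%. IKO 4 and WT 3 are the libraries with the largest shares of mitochondrial counts (50.29% and 23.91%), and the part of this in the 3 values was not tested.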

How the results depend on the processing

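Every gene kept its direction in all alternatives run (22 for Vnn3, 25 for each of the others). Of the 10 genes, 4 passed in the edgeR fit, 1 (Vnn1) without IKO 4, WT 3 and WT 4 together, and between 2 and 4 with each mouse left out, 2 (Coasy and Ppcs) without IKO 1 or without IKO 5. With the sample number as a replicate block 0 passed by edgeR (5 at an unadjusted p under 0.05), with adjusted p of 0.0541 (Ppcs), 0.0742 (Vnn1), 0.0855 (Coasy) and 0.0944 (Pank4). Same-numbered mice did not deviate together (correlations between -0.3051 and 0.2316, and 1 of 7 numbers correlated best with itself). No pairing by number was detected in this way, but a weak one could be missed. Pank4 also missed the threshold without a filter on low counts (adjusted p = 0.0993) and by limma on log2(FPKM + 1) without a filter (0.0702). Vnn3 passed by limma-voom with quality weights (adjusted p = 0.0348) and Nudt7 by DESeq2 (0.0485). Over all genes 1200 passed (607 higher, 593 lower), against 2484 by DESeq2 (1186 and 1298), 1889 by limma-voom with quality weights (993 and 896), 508 without a filter (346 and 162), 614 by limma on log2(FPKM + 1) without a filter (454 and 160), 433 without the 3 libraries (276 and 157), 362 with the replicate block (226 and 136) and between 515 and 1371 with each mouse left out. With the filter, limma on FPKM split the calls 708 to 328 at a pseudocount of 1 and 706 to 317 at 0.1. Of the genes around the pathway 1 passed, against 2 by DESeq2 (Hnf4a and Ppara), 2 by limma-voom with quality weights (Btd and Ppara), 0 by limma without a filter, 0 without the 3 libraries, 0 with the replicate block and between 0 and 1 with each mouse left out. The difference in log2 of Vnn1 over summed Pank was 1.03 without the 3 libraries (adjusted p = 0.0519) and between 0.79 and 1.10 with each mouse left out. The difference in the Vnn1 share was -0.0079 percentage points without the 3 libraries, -0.13 without WT 3, and between -0.13 and 0.26 with each mouse left out. Of the neighboring pairs in the WT order 5 passed with 7 mice and 0 with each left out. The smallest p that the exact sign-flip test can give is larger with 6 mice than with 7. Beyond such smaller designs, the cause of these changes was not tested.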

Other observations

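The genes that did not pass were also set beside the 8210 others, a step chosen after their values were seen and given as values only. Pank3, with its wide spread among IKO mice, was most like Cpeb4 (RMS 0.218), Sucla2 (0.230) and Gnai3 (0.247). Pank1 was most like Lmnb1 (0.255), Sh3bgrl2 (0.264) and Cdca7 (0.269). Ppcdc was most like Ilkap (0.142), 2010111I01Rik (0.175) and Ddx39b (0.180). Nudt7 was most like Stambp (0.101), Anxa7 (0.104) and Mkrn1 (0.109), and Pank2 most like Ubl3 (0.104), Plekhf2 (0.112) and Usp4 (0.114). Vnn3, on its few counts, was most like Upp1 (0.426), Diaph1 (0.443) and Phactr4 (0.493).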
